A study of Oryza sativa Japonica Group with 8 samples.

Results

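The genes described here belong to the enzyme families of jasmonate synthesis or to the family of its repressors, and they were taken by name as AOS4, OPR4, OPR5, CM-LOX1, LOX1.1 and JAZ2. The 6 names, matched to gene symbols and synonyms, led to 8 genes with 9 probe sets, of 17905 genes and 57258 probe sets measured. OPR4 is a name of LOC4340486 and also a synonym of LOC4340484, which is called OPR6 here, and OPR5 is a name of LOC4340485 and also a synonym of LOC107279821, called OPR12 here. The name OPR6 is a synonym of LOC4340485 too. JAZ2 is LOC4342421, also named TIFY5. The name OsJAZ2 has been used for LOC4331833 too, which is called TIFY11C here and was counted among the other jasmonate genes. The names were chosen by their measured intensities in the 4 groups, with earlier results of these arrays known, so the levels of the 8 genes and their differences between groups are given as a description without a test.

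Expression was measured on 8 arrays of above-ground tissue from rice seedlings of the cultivar Nipponbare, raised for 5 days at 28 °C. Wild-type seedlings were kept in darkness (2 arrays) or in continuous red light (2 arrays; 50 µmol m-2 s-1), and so were transgenic Ubi::OsYHB seedlings in the same background (2 arrays each). OsYHB is an always-active form of the rice red light receptor phytochrome B, and here the maize Ubiquitin promoter drove it in addition to the seedlings' own phytochromes. The 2 OsYHB arrays of a light condition are separate insertion lines, line 1 with 41-fold and line 9 with 23-fold overexpression, so that a difference between the arrays of an OsYHB group is also a difference between lines. The design asks what the active receptor does without light and with it, beside what red light does in wild type.

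Jasmonate synthesis starts in the plastid, where a lipoxygenase adds oxygen to linolenic acid and an allene oxide synthase and an allene oxide cyclase turn the product into 12-oxophytodienoic acid. A reductase of the OPR family and rounds of beta-oxidation in the peroxisome finish the hormone, and JAR1 joins it to isoleucine. The conjugate brings the receptor COI1 and a JAZ repressor together, the repressor is degraded, and transcription factors of the MYC type are released. In rice coleoptiles jasmonate synthesis is known to answer light through phytochromes, and jasmonate restrains seedling elongation.

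Median intensities of the arrays lay between 20.4 and 20.9, and the correlation of log2 intensity between the arrays of a group was 0.992 to 0.996. A reporter control probe set read 7668.6 to 9833.5 on the OsYHB arrays and 7.2 to 8.1 on the wild-type arrays, which fits the genotype labels. The values carry no detection call, and the lower quartile of an array, 6.8 to 7.3, serves below as a mark for dim probe sets. Of 12 shoot photosynthesis markers 6 had a probe set, and all 6 were above the arrays' median everywhere. Their summed intensity was 24809.4 and 27059.0 in wild-type darkness and 53159.0 to 58865.9 in the other groups, so it moved with the comparisons below, and its part in them was not tested. Among root markers the Casparian strip gene CASP1 read 8.5 to 13.2 and the silicon transporter gene Lsi2 4.5 to 16.2, while Lsi1 read 471.5 to 943.1. The nicotianamine synthase gene NAS1 of the same list read 423.6 and 754.2 in wild-type red light and 8.8 to 49.9 on the other arrays. Summed root markers (6 of 8 measured) read 735.3 to 1091.5 in wild-type darkness, 1001.1 to 1340.5 in wild-type red light, 660.3 to 742.8 in OsYHB darkness and 556.9 to 562.6 in OsYHB red light. Summed seed and late embryo markers (8 of 12 measured) read 1572.5 to 1841.8, 1146.3 to 1924.0, 1292.1 to 1319.6 and 1224.2 to 1456.6 in the same order. Of this list the glutelin gene GLUA1 read 4.1 to 5.7 over the arrays, while GLUA2 read 203.6 to 373.7 and GLB1 526.1 to 1121.0. Within that sum the late embryo gene RAB21 read 696.1 and 445.8 in wild-type darkness, 28.7 and 565.4 in wild-type red light and 14.8 to 25.4 in OsYHB. LEA19, also of late embryos, read 218.2 and 117.5, then 10.5 and 229.8, and 7.0 to 9.0 in OsYHB, so both were higher in wild-type darkness than in OsYHB and far apart between the wild-type red light arrays. The part of root and seed markers in the results was not tested. In whole shoots fewer cells of a type and less RNA per cell cannot be told apart.

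**Figure D1:**
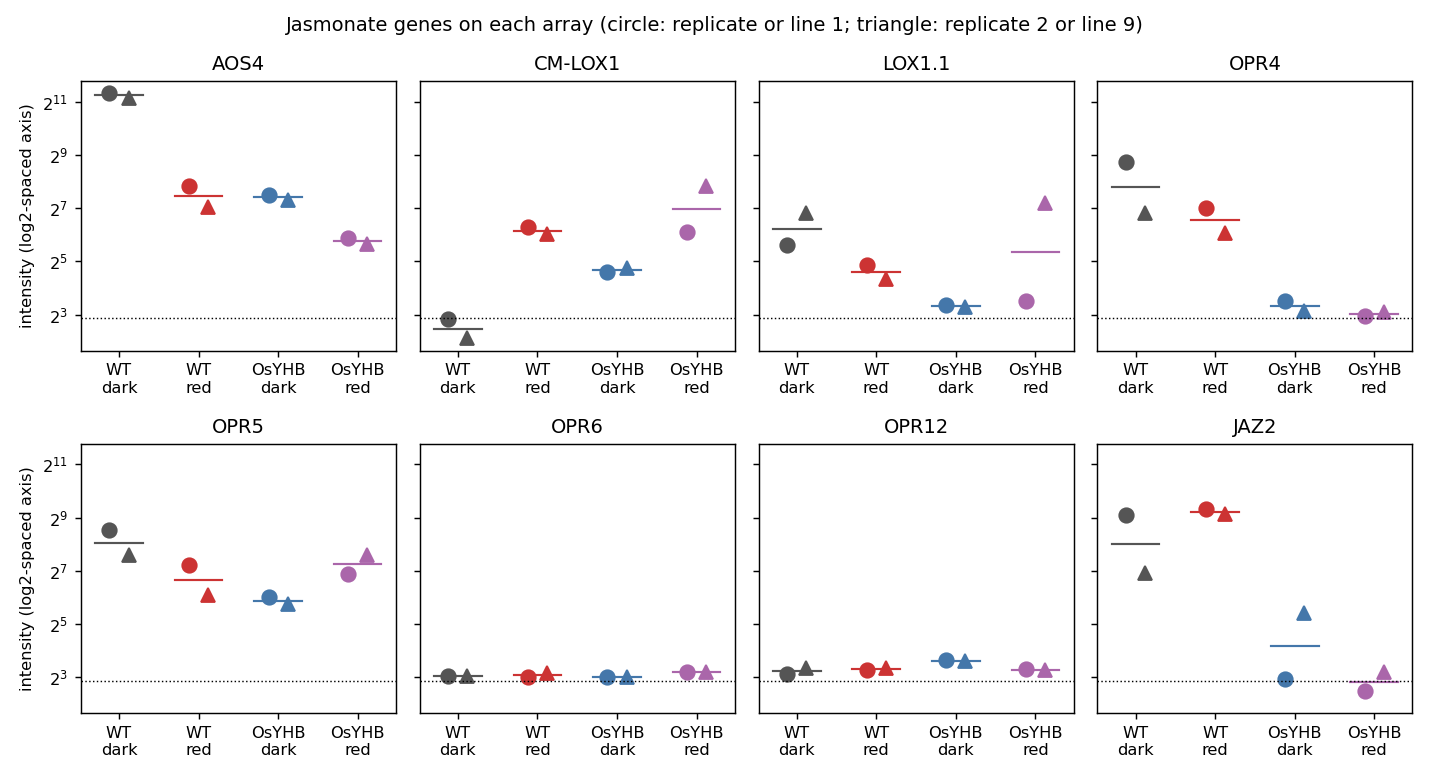
Intensity of the 8 genes on each array (brightest probe set, log2-spaced axis), with circles for replicate 1 or line 1, triangles for replicate 2 or line 9, and a bar at the mean of the log2 values. The dotted line is the highest lower quartile of any array, 7.3. AOS4 is far higher in wild-type darkness than elsewhere, CM-LOX1 is lowest there, and OPR4 and JAZ2 are high in both wild-type groups and low in both OsYHB groups.

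The 2 lipoxygenase genes differed in pattern, and their names do not show which of them acts in jasmonate synthesis. CM-LOX1, a plastid lipoxygenase gene, read 7.1 and 4.3 in wild-type darkness, 79.3 and 64.5 in wild-type red light, 24.4 and 27.1 in OsYHB darkness, and 68.3 and 230.2 in OsYHB red light for lines 1 and 9. It was thus near the lower quartile in wild-type darkness and above it in every array of the other groups, with OsYHB darkness in between and the red light groups overlapping. On the log2 scale it was higher by 3.69 (SE 0.48) in red light than in darkness in wild type and by 2.22 (SE 0.48) in OsYHB than in wild type in darkness. Red light went with a further difference of 2.29 (SE 0.48) within OsYHB, which was 1.41 without line 9 in red light and 3.16 without line 1 in red light. The differences from wild-type darkness are thus taken against dim values.

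LOX1.1, another lipoxygenase gene, read 49.3 and 113.9 in wild-type darkness, 29.4 and 20.1 in wild-type red light, 10.4 and 9.7 in OsYHB darkness, and 11.3 and 147.8 in OsYHB red light. The OsYHB dark arrays were below every wild-type array, at a log2 difference of -2.90 (SE 0.97) from wild-type darkness. The OsYHB dark values were dim, just over the lower quartile of the arrays, so the size of this difference is not fixed by them. In OsYHB red light line 9 gave the highest value of all 8 arrays and line 1 one close to the dark level, a 13.1-fold gap. The log2 difference between red light and darkness within OsYHB was 2.02 (SE 0.97), and it was 0.17 without line 9 in red light and 3.88 without line 1 in red light. Against wild-type red light OsYHB red light differed by 0.75 (SE 0.97), which became -1.11 without line 9 in red light.

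At the allene oxide synthase step AOS4 set wild-type darkness apart from the other 3 groups. AOS4, an allene oxide synthase gene of the cytochrome P450 family CYP74, read 2551.3 and 2279.1 in wild-type darkness, 230.0 and 132.0 in wild-type red light, 181.8 and 157.7 in OsYHB darkness, and 59.1 and 50.2 in OsYHB red light. Wild-type darkness stood apart at the top and OsYHB red light at the bottom, while the 2 groups between them overlapped. The log2 difference from wild-type darkness was -3.79 (SE 0.24) in wild-type red light and -3.83 (SE 0.24) in OsYHB darkness, 13.8-fold and 14.2-fold lower. These comparisons share the wild-type dark arrays. OsYHB darkness and wild-type red light differed by -0.04 (SE 0.24), a sign that turned to 0.36 without wild-type red replicate 1 and that also flipped under quantile normalization.

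Red light and the transgene together gave the lowest AOS4 level. Within OsYHB, red light differed from darkness by -1.64 (SE 0.24), less than the -3.79 within wild type, and the difference of these 2 responses was 2.15 (SE 0.34). Within red light, OsYHB differed from wild type by -1.68 (SE 0.24), which ranged from -2.08 to -1.28 as single arrays were left out.

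AOS3 lies next to AOS4 in the gene table of the RefSeq assembly with no other protein-coding gene between them, and its probe set stayed dim, between 5.4 and 7.3 on all arrays. The steep AOS4 pattern was therefore not seen at the neighbouring gene, although a dim probe set could not show a further decrease.

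**Figure D2:**
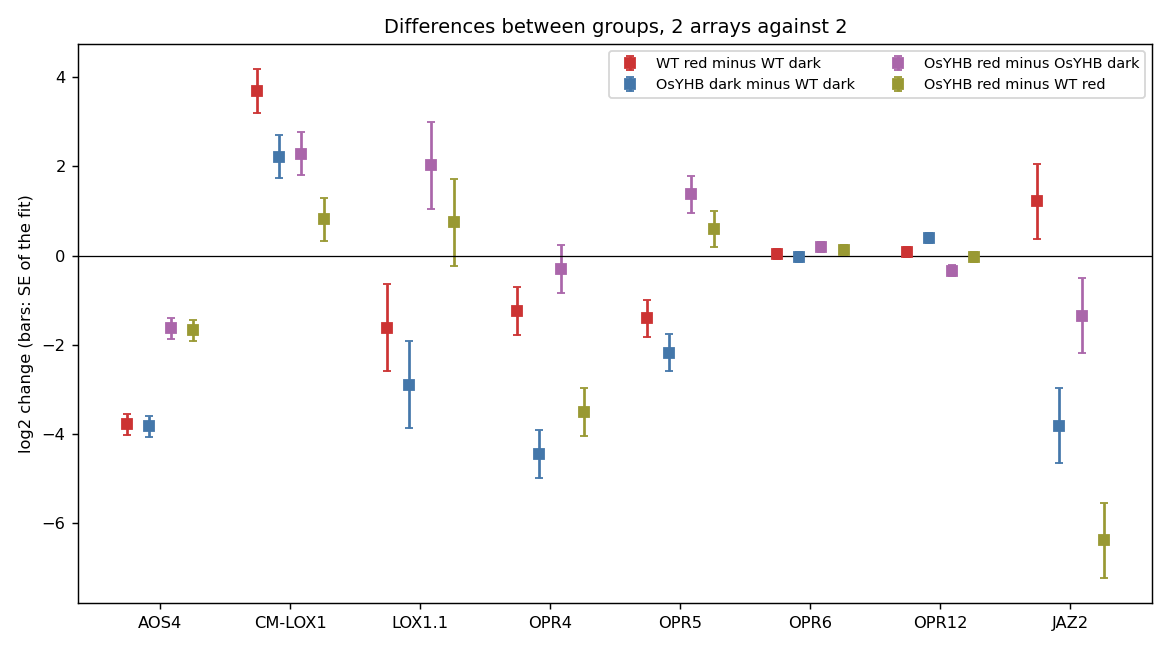
Log2 differences between groups for the 8 genes (squares), with bars for the standard error of the limma fit, 2 arrays against 2. AOS4, OPR4, OPR5, LOX1.1 and JAZ2 lie below 0 and CM-LOX1 above 0 for OsYHB against wild type in darkness, while OPR6 and OPR12 stay within 0.39 of 0.

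The OPR genes reduce the ring of 12-oxophytodienoic acid or related compounds, and in rice OPR7 is the family member known to act in jasmonate synthesis. OPR4 read 422.1 and 114.3 in wild-type darkness, 129.1 and 67.2 in wild-type red light, 11.5 and 8.7 in OsYHB darkness, and 7.7 and 8.6 in OsYHB red light. All 4 wild-type arrays were thus above all 4 OsYHB arrays, and the OsYHB values lay at or just over the lower quartile of the arrays. The log2 difference between OsYHB and wild type was -4.46 (SE 0.54) in darkness and -3.52 (SE 0.54) in red light. As single arrays were left out, the first ran from -5.40 (without wild-type dark replicate 2) to -3.51 (without wild-type dark replicate 1).

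Between light conditions OPR4 differed less. The wild-type groups overlapped and were -1.24 apart (SE 0.54), with -2.18 without wild-type dark replicate 2 and -0.30 without wild-type dark replicate 1. In OsYHB, red light and darkness were -0.30 apart (SE 0.54).

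OPR5 read 370.1 and 193.4 in wild-type darkness, 147.9 and 68.9 in wild-type red light, 64.2 and 54.1 in OsYHB darkness, and 119.4 and 194.9 in OsYHB red light. Red light thus went with lower values in wild type, by -1.41 on the log2 scale (SE 0.41), and with higher values in OsYHB, by 1.37 (SE 0.41), with no overlap in either genotype. In darkness OsYHB differed from wild type by -2.18 (SE 0.41), and in red light the genotypes overlapped (0.60, SE 0.41). A second probe set of OPR5 was dim, at 4.4 to 8.0 on all arrays, and with the mean of both probe sets the dark difference was -1.31, the red light difference within OsYHB 0.68 and that within wild type -0.86. The last was also -0.86 without wild-type red replicate 2.

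The differences of OPR4 and OPR5 were not seen in the other genes that carry these names as synonyms, although dim probe sets could not show a decrease. OPR6 read 8.0 to 9.3 over all 8 arrays and OPR12 8.8 to 12.4, so both were dim throughout. OPR12 was at 12.4 and 12.3 in OsYHB darkness and between 8.8 and 10.2 elsewhere, a log2 difference of 0.39 (SE 0.12) from wild-type darkness.

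In the RefSeq gene table OPR6, OPR5 and OPR4 follow each other with no protein-coding gene between neighbours, and OPR3 and OPR1 come next. Of this row OPR3 has no probe set of its own here. OPR1 read 44.9 and 20.8 in wild-type darkness, 23.2 and 18.7 in wild-type red light, 13.3 and 17.6 in OsYHB darkness, and 23.2 and 46.9 in OsYHB red light. Its lowest arrays were those of OsYHB darkness, as for OPR5, and its log2 difference there was -0.998 (SE 0.40, limma adjusted p = 0.131). Paralogues in a row can share probe sequence, and the probes were not available to check this.

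JAZ2, a member of the TIFY family that holds the JAZ repressors, separated the genotypes in both light conditions. It read 550.1 and 120.6 in wild-type darkness, 641.2 and 559.9 in wild-type red light, 7.7 and 42.9 in OsYHB darkness for lines 1 and 9, and 5.6 and 9.1 in OsYHB red light. Every wild-type array was above every OsYHB array, and 3 of the 4 OsYHB values were close to the arrays' lower quartile. The log2 difference between OsYHB and wild type was -6.39 (SE 0.84) in red light and -3.82 (SE 0.84) in darkness, and the OsYHB side of it is dim, so that its size is not fixed by these values.

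The dark difference of JAZ2 rested on arrays that disagreed. It was -2.59 without OsYHB dark line 1 and -5.06 without OsYHB dark line 9, and the wild-type dark arrays were 4.56-fold apart. In red light the difference stayed between -6.74 and -6.04 as single arrays were left out. Wild-type red light and darkness differed by 1.22 (SE 0.84), with the dark value of replicate 1 close to the red light values. The probe set is of a type shared by several transcripts, so related sequences may add to its value.

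By the limma fit over all probe sets, with a call at an adjusted p under 0.05, the 8 genes had 2 calls for red light in wild type, beside 9.73% of all probe sets. For OsYHB against wild type in darkness they had 5 calls, beside 17%, namely AOS4, OPR4, OPR5 and JAZ2 lower and CM-LOX1 higher. The call of OPR5 was lost without OsYHB dark line 9, that of JAZ2 without line 1 in OsYHB darkness, without replicate 1 in wild-type darkness or on the arrays of both groups alone, and that of CM-LOX1 without wild-type dark replicate 2 or either OsYHB dark line. For the interaction of light and genotype there were 2 calls, AOS4 and OPR5, beside 4.22%. The call of AOS4 was lost without OsYHB dark line 9, and that of OPR5 under 7 of 13 alternatives, the mean of its probe sets among them. No gene of the 8 was called for red light within OsYHB, beside 0.0105%, with 4 at an unadjusted p under 0.05. None was called for OsYHB within red light, beside 0.0192%, with 3 at an unadjusted p under 0.05. OsYHB darkness against wild-type red light had no call either, beside 0.194%, with 4 at an unadjusted p under 0.05. These percentages are shares at an adjusted p under 0.05, and the share of all probe sets at an unadjusted p was not counted. As the genes were proposed from these same comparisons, the counts describe the choice and nothing is read from them.

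Several of the 8 genes differed over 2-fold between the arrays of 1 group. In wild-type darkness replicate 1 was over 2-fold higher than replicate 2 for 2 of the 8 genes (JAZ2 and OPR4), beside 1.13% of all probe sets, and replicate 2 for 1 (LOX1.1), beside 0.248%. In wild-type red light replicate 1 was over 2-fold higher for 1 gene, OPR5, beside 0.26%, and replicate 2 for none, beside 0.143%. In OsYHB red light line 9 was over 2-fold higher than line 1 for LOX1.1 and CM-LOX1, beside 0.706%, and line 1 for none, beside 0.169%. In OsYHB darkness line 9 was over 2-fold higher for 1 gene, JAZ2, beside 0.231%, and line 1 for none, beside 0.276%.

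The other jasmonate genes leaned the same way in OsYHB red light. Line 9 was higher than line 1 for 30 of 36 of them (median log2 difference 0.24), beside 46.6% of all probe sets (median -0.01). The gap passed 2-fold for 3 of 36, CM-LOX2, TIFY11C and OPR1, beside 0.706%. Among them TIFY11C read 65.3 in line 1 and 170.9 in line 9, and CM-LOX2, which lies next to CM-LOX1, read 19.4 and 59.7. In OsYHB darkness line 9 was higher for 15 of 36 (median -0.02), beside 47.7%. In wild-type darkness replicate 1 was higher for 28 of 36, while over all probe sets replicate 2 was higher in 51.5%. With 1 array per line and light condition the difference between lines has no replicate check. The shares over all probe sets here include many dim ones. In OsYHB red light the upper quartile of the array was 165.88 in line 1 and 169.8 in line 9, and its part in the lean was not tested.

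**Figure D3:**
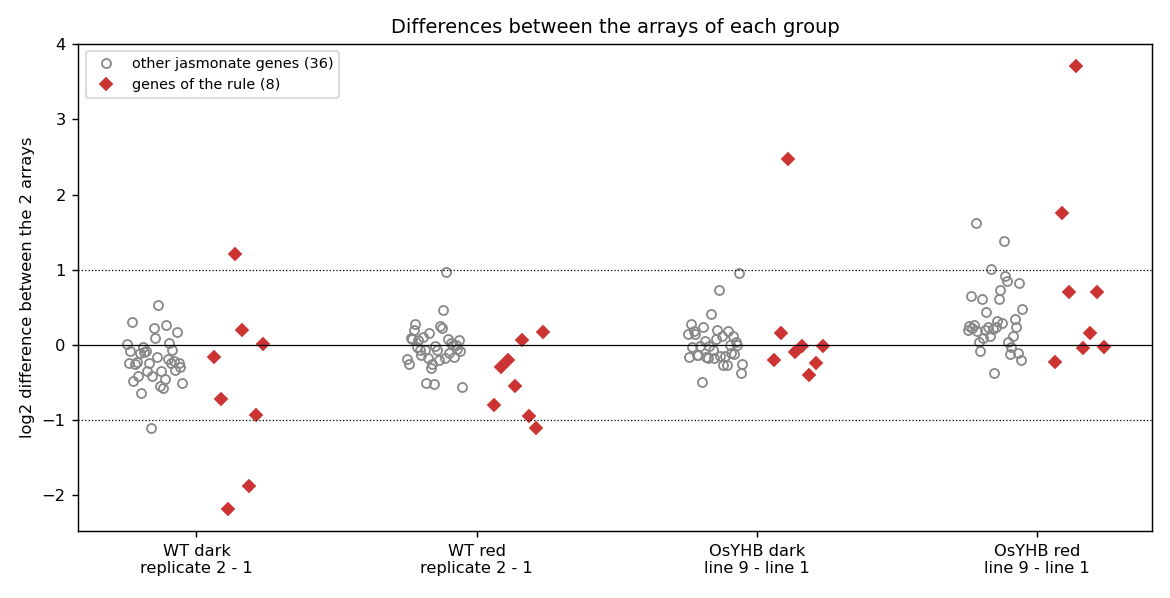
Log2 difference between the 2 arrays of each group for the 8 genes (red diamonds) and the other 36 jasmonate genes (open circles), with dotted lines at a 2-fold difference. In OsYHB red light most points lie above 0, with LOX1.1 at 3.71 and CM-LOX1 at 1.75.

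A list of other genes matched to name patterns of the pathway held 41 genes, of which 36 had a probe set. These are the other jasmonate genes here, and a match by name does not show that each acts in the pathway. In wild type, red light raised 2 and lowered 4 of the 36 (limma adjusted p under 0.05), beside 5.14% higher and 4.59% lower of all probe sets, with a median log2 change of -0.19 beside -0.04. The share over all probe sets includes many dim ones. With probe sets averaged per gene the count was 8 of 36 beside 20.8% of all features, and with the filter on dim probe sets 8 of 29 beside 23.7%. The allene oxide synthase gene AOS2 rose by 1.25 (SE 0.20, limma adjusted p = 0.00669), from 24.8 and 23.5 to 55.6 and 59.2, with no overlap, the opposite direction to AOS4. JAR1, the gene of the enzyme that conjugates jasmonate to isoleucine, rose by 0.51 (SE 0.12, limma adjusted p = 0.0367). The falls were those of the JAZ repressor genes TIFY11E (-1.80, SE 0.35, limma adjusted p = 0.0138), TIFY6A (-0.95, SE 0.15, limma adjusted p = 0.00601) and TIFY11B (-0.64, SE 0.17, limma adjusted p = 0.048), and of the lectin gene salT (-1.37, SE 0.25, limma adjusted p = 0.0118). TIFY11B lost its call with the replicate block, and none of the 6 calls held under every alternative run. The count was 3 without wild-type dark replicate 1, 3 without wild-type red replicate 1 and 1 without wild-type red replicate 2.

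In darkness OsYHB raised 2 and lowered 10 of the 36 against wild type, beside 7.69% higher and 9.27% lower of all probe sets, with a median of -0.37 beside 0.01. With probe sets averaged per gene the count was 18 of 36 beside 33.4%, and with the filter 16 of 29 beside 39.6%. AOS2 (0.84, SE 0.20, limma adjusted p = 0.0262) and JAR1 (0.58, SE 0.12, limma adjusted p = 0.0168) rose here as well. Of the 17 genes for JAZ and other TIFY proteins and their adaptor NINJA1, 5 fell and none rose. TIFY11C (JAZ11) fell by 1.70 (SE 0.41, limma adjusted p = 0.0249), from 252.4 and 169.3 to 70.0 and 58.2. TIFY11E, also named JAZ13, fell by 1.47 (SE 0.35, limma adjusted p = 0.0231), from 57.9 and 69.2 to 25.1 and 20.8. TIFY11D, also named JAZ12, fell by 1.33 (SE 0.28, limma adjusted p = 0.0149), from 462.2 and 336.5 to 164.8 and 148.5. TIFY6A, also named JAZ3, fell by 1.27 (SE 0.15, limma adjusted p = 0.00115), from 1375.7 and 1184.2 to 551.4 and 507.9, and kept its call under every alternative run. In each of these 4 genes both dark groups were apart on every array.

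The response gene salT fell by 1.56 in the same comparison (SE 0.25, limma adjusted p = 0.00492), from 13078.5 and 9212.4 to 4074.6 and 3420.1, and also kept its call under every alternative run. Of 4 other lipoxygenase genes 2 fell, LOX5 and LOX2, beside 9.27% lower of all probe sets. MFP, a gene of peroxisomal beta-oxidation, fell as well. With probe sets averaged per gene 33.4% of all features were called in either direction, so nothing is read from these small counts. Lipoxygenase genes were listed by name, which does not show which of them act in jasmonate synthesis. The allene oxide cyclase gene AOC and OPR7 were not called, at -0.38 (SE 0.13, limma adjusted p = 0.0834) and -0.48 (SE 0.17, limma adjusted p = 0.0882). Apart from salT and TIFY6A, each of the 12 calls was lost under at least 1 alternative. The count of 12 was 5 without wild-type dark replicate 1, 4 without OsYHB dark line 1 and 3 without OsYHB dark line 9. It was 8 on the arrays of both groups alone.

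Of the 3 receptor genes, COI1A fell in OsYHB darkness by 0.68 (SE 0.13, limma adjusted p = 0.0106), from 1219.9 and 1042.8 to 737.6 and 670.1. In wild-type red light it was at -0.49 (SE 0.13, limma adjusted p = 0.0544). COI1B was not called in either comparison (-0.48, SE 0.15, limma adjusted p = 0.0649 in OsYHB darkness and -0.27, SE 0.15, limma adjusted p = 0.339 in wild-type red light), nor was COI2 (-0.07, SE 0.11 and -0.03, SE 0.11). None of the 3 was called in the other 4 comparisons.

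**Figure D4:**
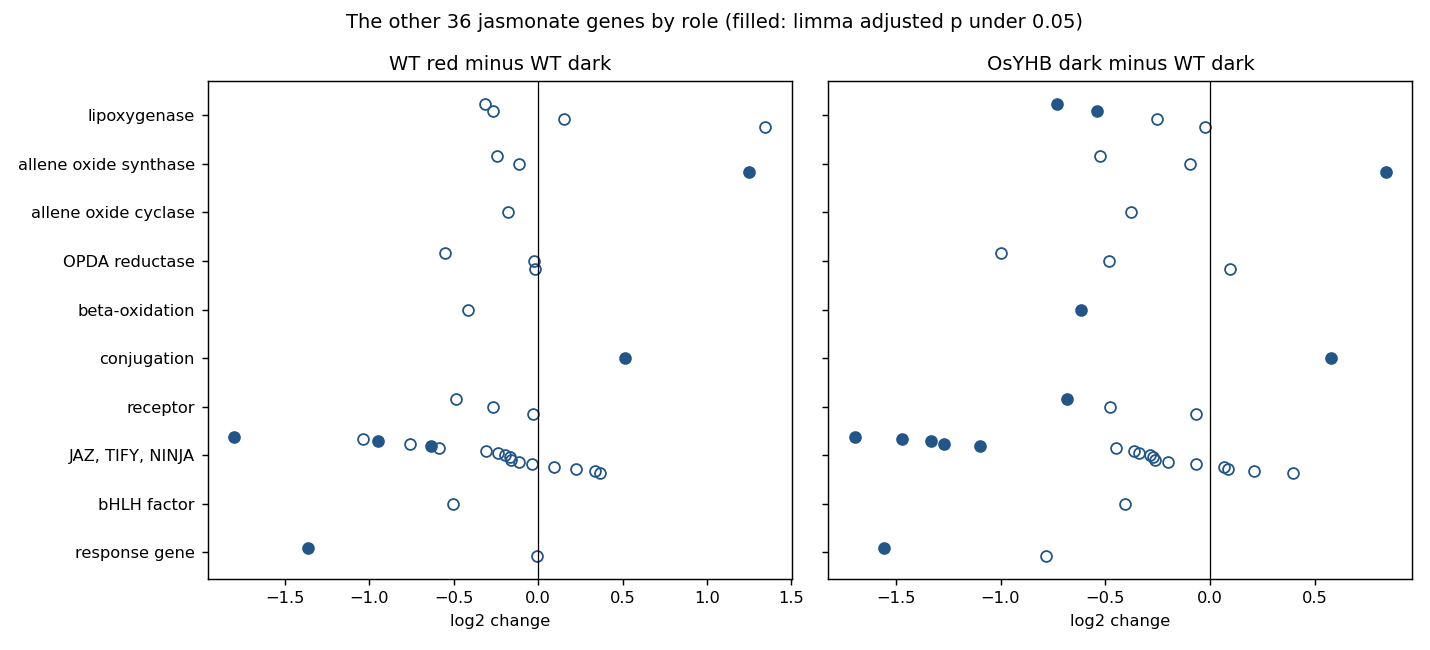
Log2 change of the other 36 jasmonate genes by role for red light in wild type (left) and OsYHB in darkness (right), both against wild-type darkness. Filled circles passed a limma adjusted p under 0.05, and 3 and 5 of the 17 JAZ, TIFY and NINJA1 genes did so, all of them lower. Of all probe sets, many of them dim, 4.59% and 9.27% were called lower.

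Red light within OsYHB called 0 of the 36, beside 0.0105%, with 5 at an unadjusted p under 0.05. OsYHB within red light called 0 of 36, beside 0.0192%, with 0 at an unadjusted p under 0.05. The percentages in this paragraph are shares called at an adjusted p under 0.05. The share of all probe sets at an unadjusted p was not counted, so nothing is read from the unadjusted counts. OsYHB darkness against wild-type red light called 0 of 36 as well (6 at an unadjusted p under 0.05), beside 0.194%, though CM-LOX2 was called when either OsYHB red light array was left out. CM-LOX2 was also called for red light within OsYHB when line 1 in red light was left out. The interaction of light and genotype was called for 2 of 36, beside 4.22%, namely salT (1.65, SE 0.36, limma adjusted p = 0.0418) and TIFY6A (1.14, SE 0.21, limma adjusted p = 0.0251). Both fell in red light in wild type and were not called within OsYHB. With the replicate block the count was 1, TIFY6A. Leaving out wild-type dark replicate 1, wild-type red replicate 2, either line in OsYHB darkness or line 9 in OsYHB red light brought it to 0, and leaving out wild-type red replicate 1 to 1.

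Among 2457 other named genes, those most like each of the 8 over the 8 arrays were found by Pearson's r of log2 intensity, as a description of arrays that share their groups. The closest to CM-LOX1 was AOS2 (r = 0.985), followed by the aquaporin gene OsTIP4;1 (r = 0.984) and ALN (r = 0.981). The closest to AOS4 were GLYI-11 (r = 0.994), ML4 (r = 0.989) and BGLU30 (r = 0.984), all highest in wild-type darkness and lowest in OsYHB red light. BGLU30 read 8139.3 and 6361.2 in wild-type darkness and 1351.5 and 1161.1 in OsYHB red light, while GLYI-11 moved only from 7495.0 and 7706.0 to 5507.4 and 5468.8. A high r thus says nothing of the size of a difference.

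For OPR4 the closest genes were OsTrx18 (r = 0.980), MAP3 (r = 0.975) and HOX6 (r = 0.974), and for OPR5 they were ERH1 (r = 0.975), MAPKK1 (r = 0.966) and CSLA1 (r = 0.961). For LOX1.1 they were DXPS (r = 0.926), OFP8 (r = 0.902) and ABCG36 (r = 0.899), and DXPS, like LOX1.1, was higher in line 9 than in line 1 in OsYHB red light (124.3 and 22.7). For JAZ2 they were OsRMR2 (r = 0.937), FH13 (r = 0.935) and RMSOD1 (r = 0.927). The dim OPR12 was closest to OsWNK6 (r = 0.973), HSP16.0 (r = 0.966) and NRAMP6 (r = 0.965), and the dim OPR6 to osysl8 (r = 0.950), CBF3 (r = 0.884) and CSTLP1 (r = 0.839).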

How the data were processed

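The deposited table holds linear intensity values, 1 for each array and probe set. The submitters' processing notes name RMA, GCOS and limma without version or role, and the background correction is not given there. The table was taken as normalized, and log2 of the intensity was fitted. Of 57381 probe sets, 123 control probe sets, those with names starting in AFFX, were left out. The reporter control probe set stayed among the 57258 fitted and counted. GEO's platform annotation gave 1 gene for 22436, several for 95 and none for 34727. Names come from RefSeq's gene table. Where a gene had several probe sets, the brightest on average stood for it.

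With all 8 arrays in 1 fit, limma 3.58.1 (R 4.3.3) estimated the means of the groups (4 residual and 4.27 prior degrees of freedom), with two-sided p-values adjusted by Benjamini-Hochberg over 57258 probe sets. The fit was also run on simulated data that gave every probe set the same spread. Real probe sets differ in spread, so that run checked the working of the fit and not its error rates on these arrays. Alternatives were quantile normalization, a filter on dim probe sets, the mean over probe sets of a gene, an intensity trend, the replicate block, the arrays compared alone and leaving out each array. Per the labels, arrays of 1 group come from separate biological samples, and p-values measure the spread between them. Replicate numbers stand for lines in OsYHB and so pair those groups (correlation of deviations 0.145, and 0.093 between wild-type groups). Tables and plots used Python 3.11.15.

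The genes and lists were chosen with earlier results of these data known. The pathway list was built from name patterns, and 2 hits, a cell death gene and a sucrose synthase gene, were left out by name. In each of the 6 comparisons the rule named the 4 called genes that rose most and the 4 that fell most, with all receptor genes. Genes next to one of the 8, the other lipoxygenase and beta-oxidation genes, AOC, OPR7 and, for OsYHB in darkness, TIFY6A were named after values were seen. The motif search planned for promoters was not run, as no promoter sequence was used here.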

Additional observations from a re-analysis of the deposited data

Results flagged for a closer look

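For salT and TIFY6A the limma interaction term passed, at 1.65 and 1.14 on the log2 scale, which is 2 of 36 genes beside 4.22% of all probe sets. Neither call held under every alternative run. OPR5 and LOX1.1 stood out because every red light array was below every dark array in wild type and above every dark array in OsYHB. The difference between the responses was 2.78 for OPR5, which the fit called, and 3.65 for LOX1.1, which it did not call. The LOX1.1 value was 1.79 without line 9 in red light, and line 1 in red light (11.3) was barely above the OsYHB dark arrays (10.4 and 9.7). Both genes, and AOS4 with a called difference of 2.15, were chosen from these comparisons, so the fit's calls on them are a description.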

How the results depend on the processing

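Counts of called genes among the other 36 moved most when single arrays were left out. They ran from 1 to 6 for red light in wild type (6 as reported), from 3 to 14 for OsYHB in darkness (12), from 0 to 1 for red light within OsYHB (0), from 0 to 3 for the interaction (2) and from 0 to 1 for OsYHB darkness against wild-type red light (0). The interaction count was 1 with the replicate block, which lost salT there, and the block also ended the calls of TIFY11B in wild-type red light and LOX5 in OsYHB darkness and no other call of these genes. On the arrays of both groups alone OsYHB darkness against wild-type red light had 1 call. Quantile normalization, the filter at a mean log2 of 5 (29 genes left), averaging a gene's probe sets (18 calls for OsYHB in darkness, beside 33.4% of all features) and an intensity trend kept each count within 1.5 times. The interaction count of 3 stood beside 13.2% of all features with the filter and 10.6% with averaging. Of 528 values of the 8 genes under the alternatives run on them, 54 moved by more than the spread between replicates and 0 called values changed sign. Many of the 528 could not move, so the share that moved is no measure of stability. A pairwise difference stays the same when an array outside it is left out, and any difference does with the replicate block. Averaging changes nothing where a gene has 1 probe set. Fewer arrays or genes were fitted under some alternatives, and otherwise the cause was not tested. Dim values and 2 arrays a group limit the precision.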
